A study of Mus musculus with 21 samples.

Results

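The genes described here were close to silent in vehicle-treated NUP98-NSD1 leukaemia cells and higher with both of 2 inhibitors of Polycomb repressive complex 2 (PRC2). They were chosen on the deposited log2 values of the inhibitor experiment, as the genes whose mean over the DMSO libraries was less than 1 above the lowest value of the table and whose UNC1999 and JQEZ5 means each exceeded the DMSO mean by 0.3 or more. Of 14178 genes, 72 met these limits, and 66 remained after 6 genes were left out by name (S100a9, Stfa3, Gm5483, Ctsk, Mmp13 and Il7r). The differences from DMSO therefore chose the genes and are given below as a description, with no test. What the choice did not use is the kind of gene in the set, and its values in 2 further experiments on the H3K4 demethylase Kdm5b.

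All cells were established mouse acute myeloid leukaemia lines grown with stem cell factor. In the first experiment, cells transformed by flag-tagged NUP98-NSD1 received UNC1999, JQEZ5 or DMSO for 4 days, with a stated concentration of 3 µM and 3 libraries per group. In the second, the NUP98-NSD1 cells were infected with a puromycin-selected lentivirus carrying an shRNA against Kdm5b (shKdm5b) or the empty vector (shEV), with 3 libraries each. In the third, cells transformed by MLL-AF9 were infected with a neo retrovirus carrying Kdm5b_WT, the demethylase-dead mutant Kdm5b_H499A or no insert (EV), with 2 libraries each. The 2 transforming fusions were thus not studied in the same experiment, and the labels do not say whether the libraries of a group came from separate cultures, so p-values measure the spread between these libraries, which may be technical.

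PRC2 silences genes by methylating histone H3 at lysine 27 through its catalytic subunits Ezh2 or Ezh1, and many developmental and lineage-restricted genes are kept off this way. UNC1999 and JQEZ5 are small molecules that block this enzyme activity. KDM5B removes methyl groups from histone H3 at lysine 4, a mark of active promoters. In myeloid leukaemia, genes of mature monocytes and macrophages are often held at a low level.

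Libraries held 12813000 to 18929000 reads in the inhibitor experiment, 21273000 to 29550000 with shKdm5b and 31294000 to 34814000 with shEV, and 17341000 to 19973000 in the overexpression experiment, to the nearest 1000. Levels below are normalised read counts recovered from the deposited values, and differences are on the deposited, variance-stabilised log2 scale, where genes of few reads are compressed towards the lowest value. A value 1 above the lowest corresponds to 59.0, 86.6 and 145.2 normalised counts in the inhibitor, knockdown and overexpression tables. UNC1999 replicate 3 had the lowest depth, 12813000 reads, and 294 genes at the lowest value of the table, against 92 to 143 in the other libraries of that experiment. Kdm5b averaged 28.7 ± 5.44 normalised counts with shKdm5b and 74.5 ± 17.8 with shEV (SD, n = 3 each). In the overexpression experiment it averaged 1413 ± 4.48 with Kdm5b_WT, 294.0 ± 21.5 with Kdm5b_H499A and 121.4 ± 9.89 with EV (SD, n = 2 each), so the 2 constructs also differed in Kdm5b transcript level. Ezh2 averaged 1329 ± 126.8 with UNC1999, 1751 ± 53.7 with JQEZ5 and 1752 ± 67.0 with DMSO (SD, n = 3 each). Kdm5b there averaged 886.3 ± 14.8 with UNC1999, 657.6 ± 8.64 with JQEZ5 and 607.3 ± 14.9 with DMSO. With Kdm5b_WT, Kdm5b_H499A and EV, Ezh2 averaged 3652 ± 106.1, 3785 ± 15.6 and 4243 ± 54.2 (SD, n = 2 each). It was lower with both constructs than with EV (-0.19 and -0.145, limma adjusted p = 2.00e-05 and 0.000377). With shKdm5b it was not called (-0.03, limma adjusted p = 0.652). The part of these levels in the results below was not tested. Of 16 haematopoietic and myeloid identity markers, 15 or 16 were listed in each table, at levels that differed widely. Ptprc was at 850.6 to 869.3 CPM (counts scaled to equal library totals) with UNC1999 and 406.5 to 423.9 with shEV. Flt3 was at 0 to 0.194 with UNC1999 and 0.128 to 0.265 with shEV, and Cebpe at 0.172 to 0.288 with shEV. The summed level of the monocyte and macrophage markers, 15 of 22 listed, was 17490 to 18050 CPM with UNC1999, 13480 to 13610 with JQEZ5 and 8255 to 8327 with DMSO. One of the 66 genes, Mrc1, is also in that marker list. The neutrophil markers, 9 of 12 listed, summed to 1223 to 1261 CPM with UNC1999, 846.6 to 862.0 with JQEZ5 and 753.3 to 757.9 with DMSO. The megakaryocyte markers, 9 of 12 listed, summed to 184.4 to 200.3 with UNC1999, 134.9 to 142.8 with JQEZ5 and 122.2 to 124.4 with DMSO, of which Vwf alone held 116.2 to 119.8 with UNC1999, 57.7 to 61.2 with JQEZ5 and 15.8 to 17.97 with DMSO. The B cell markers, 2 of 10 listed, were at 4.41 to 6.48 with UNC1999, 4.39 to 5.20 with JQEZ5 and 12.66 to 13.92 with DMSO. In such bulk libraries, more cells of a type and more RNA per cell cannot be told apart, and the part of these markers in the results below was not tested.

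Promoter sequence was looked at for the neighbouring serpin members, for the gene with the largest paired difference and for the gene with the most CG dinucleotides. RefSeq windows (GRCm38.p6) from 250 bases before to 50 after the annotated start were held for 39 of the 66 genes (59.1%). That is under the 80% that a comparison over the set needs, so such a comparison is void and is not reported. The 5 windows below are printed 5′ to 3′ on the gene's strand, with every CG dinucleotide in capitals. CG reads the same on both strands, 94.6% of the 32851 windows in the table held at least 1, and the median window held 7.
Serpinb2: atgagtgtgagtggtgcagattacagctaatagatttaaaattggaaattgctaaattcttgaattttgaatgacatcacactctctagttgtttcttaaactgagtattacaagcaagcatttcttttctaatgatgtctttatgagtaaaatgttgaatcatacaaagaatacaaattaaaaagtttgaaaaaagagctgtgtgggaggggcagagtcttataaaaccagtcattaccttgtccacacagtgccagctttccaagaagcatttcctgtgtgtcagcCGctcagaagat
Serpinb10: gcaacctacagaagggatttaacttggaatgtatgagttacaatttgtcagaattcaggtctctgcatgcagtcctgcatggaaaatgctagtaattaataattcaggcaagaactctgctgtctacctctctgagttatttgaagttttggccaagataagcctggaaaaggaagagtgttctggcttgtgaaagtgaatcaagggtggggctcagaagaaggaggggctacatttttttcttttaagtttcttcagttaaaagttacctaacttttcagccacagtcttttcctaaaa
Serpinb8: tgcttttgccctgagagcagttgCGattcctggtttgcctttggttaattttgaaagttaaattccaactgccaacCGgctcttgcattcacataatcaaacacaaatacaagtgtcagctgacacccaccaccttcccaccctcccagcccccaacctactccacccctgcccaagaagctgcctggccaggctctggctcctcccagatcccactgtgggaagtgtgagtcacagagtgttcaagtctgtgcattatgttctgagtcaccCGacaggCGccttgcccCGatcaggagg
Cd200r4: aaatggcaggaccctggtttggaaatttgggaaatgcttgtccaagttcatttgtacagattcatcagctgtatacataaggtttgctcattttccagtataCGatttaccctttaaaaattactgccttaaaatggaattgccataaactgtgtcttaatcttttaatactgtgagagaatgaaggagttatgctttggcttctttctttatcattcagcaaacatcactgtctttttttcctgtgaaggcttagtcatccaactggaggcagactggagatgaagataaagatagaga
Neo1: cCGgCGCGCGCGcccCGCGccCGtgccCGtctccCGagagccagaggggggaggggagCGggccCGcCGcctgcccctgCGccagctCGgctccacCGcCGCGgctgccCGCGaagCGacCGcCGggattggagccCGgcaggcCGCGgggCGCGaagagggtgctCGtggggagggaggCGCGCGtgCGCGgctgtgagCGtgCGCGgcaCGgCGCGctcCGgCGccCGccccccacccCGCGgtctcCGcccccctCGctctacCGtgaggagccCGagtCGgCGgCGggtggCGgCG
The Serpinb2 window (chr1:107511173-107511472, plus strand, the first of 2 annotated starts) held 1 CG and that of its second start 4, the Serpinb10 window (chr1:107528753-107529052, plus strand) held 0 and the Serpinb8 window (chr1:107589756-107590055, plus strand) held 5. The Cd200r4 window (chr16:44820478-44820777, plus strand), at a start inside the gene as GENCODE draws it, held 1 CG. The Neo1 window (chr9:59036392-59036691, minus strand) held 54, a number reached by 0.347% of all windows, and 14.1% of windows held as few as 1. Both CG-rich and CG-poor starts thus occurred among the genes.

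The 66 genes had a median DMSO mean of 19.4 normalised counts, against medians of 100.8 with UNC1999 and 58.5 with JQEZ5. On the log2 scale the difference from DMSO had a median of 0.66 with UNC1999, with a range of 0.31 to 1.31, and of 0.40 with JQEZ5, with a range of 0.30 to 1.21. Over all 14178 genes the medians were -0.01 and 0.00. A rise of 0.3 or more with both inhibitors, which the rule asked for, was seen in 2.74% of all genes and in 1.93% of the 3735 genes with a DMSO mean as low as that of the set. The genes reached modest levels: the highest mean was 268.7 normalised counts with UNC1999 and 192.8 with JQEZ5.

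The difference was larger with UNC1999 than with JQEZ5 in 61 of the 66 genes, and in 40 of the 66 all UNC1999 libraries lay above all JQEZ5 libraries. That held for 20.1% of all genes and 13.2% of those with a low DMSO mean; the rule used both inhibitors' means, so nothing is read from the excess. The median gene reached 0.63 of its UNC1999 difference with JQEZ5, with a range of 0.40 to 1.36. Cd9, a tetraspanin of the cell surface, had 126.8, 113.4 and 139.8 normalised counts with UNC1999, 50.0, 52.0 and 47.7 with JQEZ5 and 21.7, 16.7 and 19.99 with DMSO, which is among the lowest shares, 0.40. Arhgap29 had 86.4, 99.1 and 89.5 with UNC1999, 93.4, 114.2 and 82.5 with JQEZ5 and 43.4, 51.2 and 41.0 with DMSO. In Arhgap29 the inhibitors overlapped and both stood above DMSO, while in Cd9 the 3 groups were separate.

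**Figure D1:**
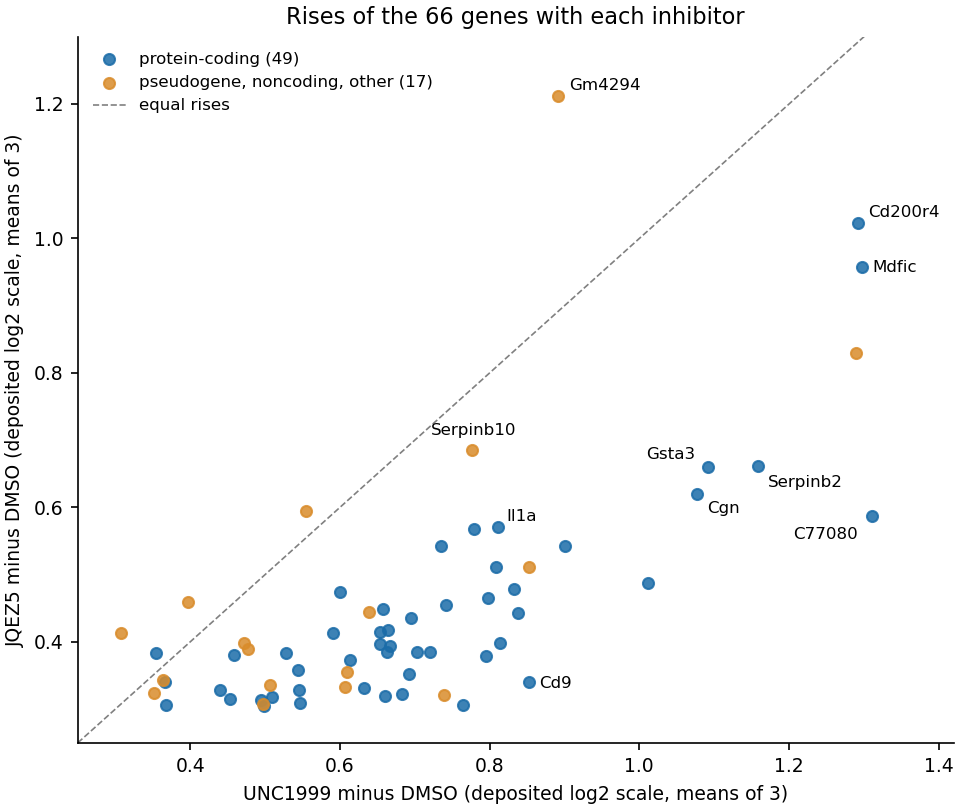
Difference from DMSO with JQEZ5 (vertical) against that with UNC1999 (horizontal) for each of the 66 genes, both on the deposited log2 scale and as means of 3 libraries, with protein-coding genes in blue. Most points lie below the dashed line of equal differences, as 61 of 66 genes had the larger difference with UNC1999, and the rule itself sets the lower edge at 0.3 on each axis.

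Of the 66 genes, 59 had all UNC1999 libraries above all DMSO libraries and 56 had all JQEZ5 libraries above them. The same held for 23.6% and 18.8% of all genes of the table, and for 16.6% and 11.2% of those with a low DMSO mean; since the rule used this contrast, nothing is read from the excess. The remaining genes were mostly pseudogenes of few or erratic reads. Both inhibitors' libraries lay above all DMSO libraries in 47 of 49 protein-coding genes and in 3 of 9 pseudogenes. These counts use the contrast that chose the genes and have no share over all genes of each kind beside them. The 2 kinds of gene are therefore not compared. Gm4294, a processed pseudogene, had 0, 536.4 and 0 normalised counts with UNC1999, 166.3, 0 and 269.2 with JQEZ5 and 0 in all DMSO libraries. Gm5641, another, had 0, 35.8 and 322.5 with UNC1999, 0, 80.8 and 16.9 with JQEZ5 and 0, 21.2 and 0.999 with DMSO. Both, named after their values were seen, rest on 1 or 2 libraries of each treated group, and reads of processed pseudogenes may be shared with their parent genes.

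Near the limits of the rule, the members with the highest DMSO means were Hcar2, Oit3 and Egr1, at 0.99, 0.94 and 0.94 above the lowest value. Just outside were Emp1, Dbndd2 and Csf1, at 1.02, 1.03 and 1.07, of which Emp1 was 1.60 higher with UNC1999 and 1.07 with JQEZ5. At the JQEZ5 limit, Ccbe1, Tnfsf15 and Cdh26 differed by 0.30, 0.31 and 0.31, and Fer1l6, Adh7 and Far2, left outside, by 0.29, 0.28 and 0.28. At the UNC1999 limit, Arhgap29 at 0.35 was inside with the predicted genes Gm6039 and Gm17139 at 0.35 and 0.31, and 4933430I17Rik, Gm19680 and Gm42733 at 0.29, 0.27 and 0.26 were outside.

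Immune and myeloid effector genes were the largest named class, with 13 of the 66 genes (19.7%). Genes of that class made up 3.03% of the other genes with a low DMSO mean and 2.91% of the whole table. With predicted and noncoding genes left out they were 27.7% of 47, against 6.69% of the other low genes. Classes were assigned by patterns in gene symbols, and their list was drawn up with earlier results of these data known, so these shares carry no test. Predicted and noncoding genes were 28.8% of the set and 54.7% of the other low genes. This class, too, was assigned by symbol, and it took in C77080, Gm10401, Gm10273 and BC100530, which GENCODE lists as protein-coding. Developmental transcription factors, a class in which PRC2 targets are common in other cell types, contributed 1 gene, Egr1, which is 1.52% of the set against 0.710% of the other low genes. Germline genes and cytoskeleton genes contributed 0. The remaining classes held 5 genes that matched the patterns for kinases, phosphatases and GTPase regulators, 4 adhesion and matrix genes, 3 channels and transporters, 3 lipid and small-molecule enzymes, 2 G protein-coupled receptors, 1 signalling ligand and 15 other named genes.

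Among the immune genes, Cd200r4, a receptor of the CD200 receptor family, had 237.9, 257.5 and 310.2 normalised counts with UNC1999, 181.8, 195.9 and 200.7 with JQEZ5 and 37.5, 27.8 and 23.98 with DMSO. It is the protein-coding gene with the largest paired difference, 1.29 with UNC1999 and 1.02 with JQEZ5, and its 3 groups did not overlap. Il1a, which encodes the cytokine interleukin 1 alpha, had 143.3, 122.6 and 68.7 with UNC1999, 74.5, 72.4 and 67.6 with JQEZ5 and 13.8, 16.7 and 16.99 with DMSO. UNC1999 replicate 3 was the low library of that group and lay within the JQEZ5 range, and all treated libraries stood above DMSO. Lyz1, a lysozyme whose reads may be shared with its near-identical copy Lyz2, had 153.4, 140.0 and 115.3 with UNC1999, 113.9, 104.0 and 91.4 with JQEZ5 and 43.4, 45.7 and 50.0 with DMSO. Other members of the class were Serpinb2, Serpinb8, Serpinb10, Gbp6, S100a10, Il1f9, Havcr2, Cd9, Mrc1 and Tnfsf15.

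Serpinb2, Serpinb10 and Serpinb8, serine protease inhibitors of clade B, lie next to each other on the plus strand of mouse chromosome 1 (mm10, GENCODE M21). Serpinb2 spans 107511423 to 107535478, Serpinb10 spans 107529003 to 107549271 and Serpinb8 spans 107590006 to 107610484. Serpinb2, known as plasminogen activator inhibitor 2, had 104.7, 93.0 and 94.4 normalised counts with UNC1999, 41.8, 27.9 and 34.8 with JQEZ5 and 0, 2.23 and 0.999 with DMSO. With 3 DMSO reads in all, its ratio to DMSO was 94.9 with UNC1999, with an exact 95% interval for counting error of 32.2 to 463.2, and 34.1 with JQEZ5, with an interval of 11.4 to 167.6. Serpinb10 had 57.9, 57.2 and 82.2 with UNC1999, 57.3, 47.4 and 57.6 with JQEZ5 and 4.93, 2.23 and 5.996 with DMSO. Serpinb2 and Serpinb10 overlap on the same strand, so how reads were divided between the pair is uncertain, and GENCODE lists Serpinb10 as a polymorphic pseudogene. Serpinb8 had 148.8, 133.8 and 138.6 with UNC1999, 62.3, 49.2 and 58.6 with JQEZ5 and 15.8, 11.1 and 15.0 with DMSO. Serpinb11, the next gene upstream in the table, averaged 2.52 with UNC1999, 6.21 with JQEZ5 and 6.86 with DMSO. The windows of the 3 neighbours printed above held 0 to 5 CG. All 3 are members, so the rule itself required each to be higher with both inhibitors, and nothing is read from that.

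Cgn, which encodes the tight junction protein cingulin, lies 89.4 kb from BC021767, a transcribed pseudogene, on chromosome 3. Cgn had 147.9, 151.2 and 163.1 normalised counts with UNC1999, 87.6, 65.9 and 68.5 with JQEZ5 and 9.87, 14.5 and 17.99 with DMSO. BC021767, named for its place beside Cgn, had 225.1, 228.8 and 221.9 with UNC1999, 117.1, 130.0 and 115.2 with JQEZ5 and 20.7, 20.04 and 15.99 with DMSO. Tuft1, on the far side of BC021767, and Selenbp2, between the pair, differed from DMSO by 0.08 and 0.31 with UNC1999 and by -0.04 and 0.14 with JQEZ5. Over the set, 7 of 65 genes with a position had another member within 500 kb (10.8%), while 4.23% of the other low genes had a member that near. A further 26.2 kb separated Oit3 from Gm10273. Overlap with another gene of the table was found for 18 members. Of these, Gm15655 lies antisense to Maf, a macrophage transcription factor that was itself 1.384 higher with UNC1999 and 0.64 with JQEZ5, and Gm13571 lies antisense to Ly75, which was 0.85 and 0.55 higher. Whether reads were counted by strand is not given in the sources used here, so these antisense values cannot be told apart from those of their partners.

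Of the other leading genes, Mdfic, an inhibitor of MyoD family proteins and other transcription factors, had 271.9, 296.3 and 237.9 normalised counts with UNC1999, 165.5, 170.8 and 192.7 with JQEZ5 and 26.7, 31.2 and 29.98 with DMSO. Its groups did not overlap, and its mean was 9.18 times the DMSO mean with UNC1999 and 6.03 times with JQEZ5. Gsta3, a glutathione transferase, had 205.8, 228.8 and 266.1 with UNC1999, 112.2, 135.6 and 146.0 with JQEZ5 and 33.6, 41.2 and 36.0 with DMSO. Myof, a ferlin of membrane repair and fusion, had 208.5, 203.3 and 207.2 with UNC1999, 123.7, 138.3 and 117.2 with JQEZ5 and 44.4, 65.7 and 32.0 with DMSO. Both genes kept the order of UNC1999 over JQEZ5 over DMSO in every library. Gpr183, a receptor for oxysterols that guides immune cell migration, had 89.1, 104.2 and 103.0 with UNC1999, 64.7, 65.0 and 80.5 with JQEZ5 and 22.7, 15.6 and 12.99 with DMSO. Oit3, a secreted zona pellucida domain protein best known from liver, had 189.2, 222.7 and 159.4 with UNC1999, 131.1, 150.4 and 144.0 with JQEZ5 and 65.1, 41.2 and 52.0 with DMSO. Hyal1, a lysosomal hyaluronidase, had 45.0, 38.8 and 24.5 with UNC1999, 28.7, 15.8 and 31.8 with JQEZ5 and 0.987, 4.45 and 0.999 with DMSO. In Hyal1 the inhibitors overlapped, and the DMSO mean rested on 6 reads. C77080, a protein-coding gene known by its identifier and named here for the largest UNC1999 difference of the set, 1.31, had 192.0, 179.8 and 214.6 with UNC1999, 69.6, 56.6 and 59.6 with JQEZ5 and 6.91, 12.3 and 13.99 with DMSO.

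**Figure D2:**
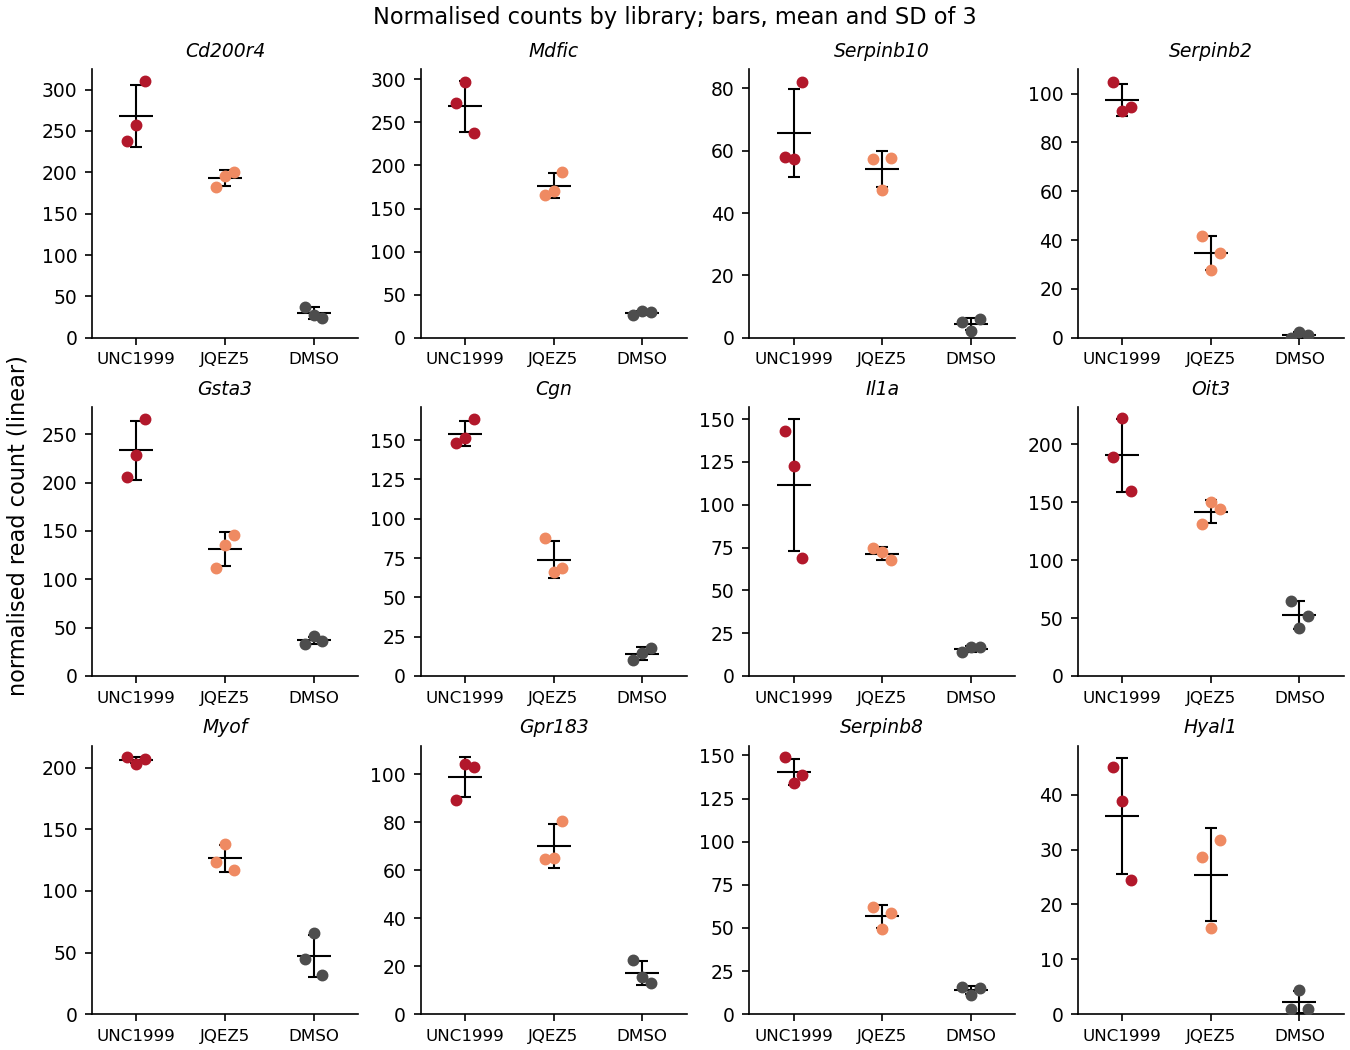
Normalised read count on a linear axis for each library of UNC1999, JQEZ5 and DMSO, for the 12 genes with a gene name whose smaller difference from DMSO was largest, with bars for the mean and SD of 3 libraries. DMSO libraries lie lowest in each panel, and in Serpinb2 they hold 0 to 2.23 normalised counts.

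Among channels and transporters, Slc6a8, the creatine transporter, had 127.7, 141.0 and 96.9 normalised counts with UNC1999, 55.7, 69.6 and 55.6 with JQEZ5 and 31.6, 14.5 and 11.99 with DMSO. Atp6v0d2, a subunit of the vacuolar proton pump prominent in osteoclasts and macrophages, had 22.97, 31.7 and 12.3 with UNC1999, 17.2, 20.4 and 11.9 with JQEZ5 and 0.987, 1.11 and 1.999 with DMSO. Both were separated from DMSO in every treated library. The enzymes beside Gsta3 were Pla2g2e, a secreted phospholipase, and Akr1b8, an aldo-keto reductase, at 5.99 times the DMSO mean with UNC1999 and 2.80 times with JQEZ5. The adhesion and matrix genes were Col23a1, Adamtsl5, Timp2 and Cdh26, and the symbol patterns for kinases and GTPase regulators took in Arhgap29, Rasd2, Camk2d, Plekhg1 and the scaffold protein gene Sh3pxd2a. The kinase gene Wnk2, named here only for that, matched no pattern and was counted among the other named genes. The signalling ligand Nrg4, a neuregulin that acts through ErbB receptors, had 106.6, 116.5 and 137.3 with UNC1999, 85.2, 98.4 and 79.5 with JQEZ5 and 49.4, 42.3 and 47.0 with DMSO. Egr1, an immediate early transcription factor, had 198.4, 185.9 and 111.6 with UNC1999, 108.9, 117.9 and 98.4 with JQEZ5 and 59.2, 47.9 and 48.96 with DMSO. In Egr1, UNC1999 replicate 3 fell within the JQEZ5 range, while all treated libraries lay above DMSO.

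Of the 66 genes, 57 were listed in the knockdown table, 37 in the overexpression table, 32 in both and 4 in neither (Serpinb2, BC100530, Cadps and Rasd2). The listed share was 86.4% and 56.1%, against 89.5% and 63.2% of all genes with a low DMSO mean. Most of the listed genes were also under 1 above the lowest value in the other control cells. That limit is looser there, at 86.6 normalised counts with shEV and 145.2 with EV, against 59.0 with DMSO. With shEV, 50 of 57 were less than 1 above the lowest value of that table, and with EV 32 of 37 were. Exceptions with a gene name were Neo1 and Egr1 with shEV, and S100a10, Egr1, Havcr2 and Cd9 with EV. Among genes under the limit, Gpr183 was at 4.88 CPM with EV and 1.13 with DMSO. The median gene was at 0.842 CPM with shEV against 1.31 with DMSO, and at 0.829 with EV against 1.49 with DMSO. Shares over all genes are not given here, so nothing is read from the counts under the limit. The 2 NUP98-NSD1 controls also differed in some myeloid markers. Itgam was at 992.1 to 1004 CPM with DMSO and 49.9 to 58.2 with shEV, and Lyz2 at 4024 to 4117 and 291.1 to 308.2. Spi1 was near level, at 250.3 to 265.7 with DMSO and 244.0 to 255.0 with shEV. The tables were normalised separately, so no test was made between them.

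Kdm5b knockdown in NUP98-NSD1 cells changed the set in both directions. Of 57 listed genes, 10 were higher (17.5%) and 8 lower with shKdm5b than with shEV by limma at an adjusted p under 0.05, and their median difference was 0.06. Over all genes 11.3% were higher and 12.3% lower, with a median of 0.00, and over genes with a low DMSO mean 6.91% were higher and 6.13% lower. Of 314 genes that both inhibitors raised by 0.3 from a higher DMSO mean, 29.9% were higher and 22.6% lower. The higher genes were Aig1, Tnfsf15, Plscr4, Cdh26, Gbp6, Myof, Neo1, Arhgap29, Mrc1 and Gm5641, and the lower ones were Gsta3, Timp2, Cgn, Gpr183, Camk2d, BC021767, Gm12435 and Gm15655. The summed monocyte and macrophage markers were 1940 to 2186 CPM with shKdm5b and 2498 to 2544 with shEV. The mast cell, basophil and eosinophil markers, 2 of 12 listed, summed to 85.7 to 97.8 CPM with shKdm5b and 2.88 to 3.48 with shEV, nearly all of it Mcpt8, a basophil protease, while Ms4a2 was at 0.799 to 1.09 with shKdm5b and 0.607 to 0.833 with shEV. The B cell markers, 4 of 10 listed, summed to 24.4 to 31.9 with shKdm5b and 13.7 to 16.3 with shEV, with Igll1 at 19.05 to 25.01 with shKdm5b and 0.353 to 0.447 with shEV, and Cd79b at 2.08 to 2.57 with shKdm5b and 9.97 to 12.37 with shEV. The dendritic cell markers, 6 of 13 listed, summed to 206.3 to 237.0 with shKdm5b and 135.8 to 146.3 with shEV, mostly Irf8. The part of these markers in the calls was not tested.

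Aig1, a membrane hydrolase of fatty acid esters, rose to 179.4, 190.2 and 204.8 normalised counts with shKdm5b, against 65.1, 64.3 and 54.8 with shEV, by 0.61 (SE 0.05, limma adjusted p = 4.39e-05). Plscr4, a phospholipid scramblase, rose to 86.2, 71.0 and 92.8 with shKdm5b, against 39.1, 44.9 and 40.6 with shEV (0.28, SE 0.05, adjusted p = 0.00348 by limma). The groups of both genes were separate, and both had been higher with each inhibitor. Tnfsf15, a cytokine of the tumour necrosis factor family, had 45.1, 68.9 and 87.4 with shKdm5b and 20.8, 26.2 and 34.9 with shEV (limma adjusted p = 0.0150). Gbp6, an interferon-inducible guanylate-binding protein of a multigene family, had 43.1, 31.9 and 41.0 with shKdm5b and 15.6, 16.1 and 16.99 with shEV (limma adjusted p = 0.00632). Neo1, the neogenin receptor whose CG-rich window is printed above, had 386.9, 450.4 and 423.2 with shKdm5b and 323.8, 314.8 and 345.5 with shEV (limma adjusted p = 0.0150). Cdh26, a cadherin, had 6.01, 6.17 and 6.83 with shKdm5b and 0, 0.846 and 0 with shEV, the last group resting on 1 read. In each of these genes all shKdm5b libraries lay above all shEV libraries.

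Among the genes that fell, Gsta3 had 4.01, 3.09 and 5.46 normalised counts with shKdm5b and 16.5, 30.5 and 18.9 with shEV, a difference of -0.28 (SE 0.05, limma adjusted p = 0.00533). Timp2, a tissue inhibitor of metalloproteinases, had 4.01, 4.11 and 4.10 with shKdm5b and 13.02, 19.5 and 16.99 with shEV (-0.22, SE 0.04, limma adjusted p = 0.00719). Cgn had 3.01, 5.14 and 5.46 with shKdm5b and 12.2, 13.5 and 21.7 with shEV (-0.20, limma adjusted p = 0.0204). Its neighbour BC021767 had 6.01, 9.26 and 8.19 with shKdm5b and 16.5, 26.2 and 16.1 with shEV (-0.17, limma adjusted p = 0.0333). Gsta3, Cgn and BC021767, among the genes furthest above DMSO with both inhibitors, thus lay below shEV in every shKdm5b library. Cd200r4 had 54.1, 83.3 and 77.8 with shKdm5b and 69.5, 92.2 and 73.6 with shEV, a difference of -0.04 with a 95% interval of -0.18 to 0.10 (limma adjusted p = 0.666).

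The counts moved when a library was left out. There were 6 higher without shEV replicate 1 or without shEV replicate 2, and 5 lower without shKdm5b replicate 2, shEV replicate 1, shEV replicate 2 or shEV replicate 3. The calls of Aig1, Plscr4, Cdh26, Gbp6, Gsta3, Timp2, Gm5641, Gm12435 and Gm15655 held under each alternative that kept the gene. The filters on low values removed Cdh26, Gsta3 and Timp2, whose calls they could not test. Calls of Myof, Neo1, Tnfsf15, Cgn, Gpr183, Arhgap29, BC021767, Camk2d and Mrc1 were lost when at least 1 library was left out. Their highest adjusted p-values were 0.0508 for Myof to 0.163 for Mrc1 by limma.

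**Figure D3:**
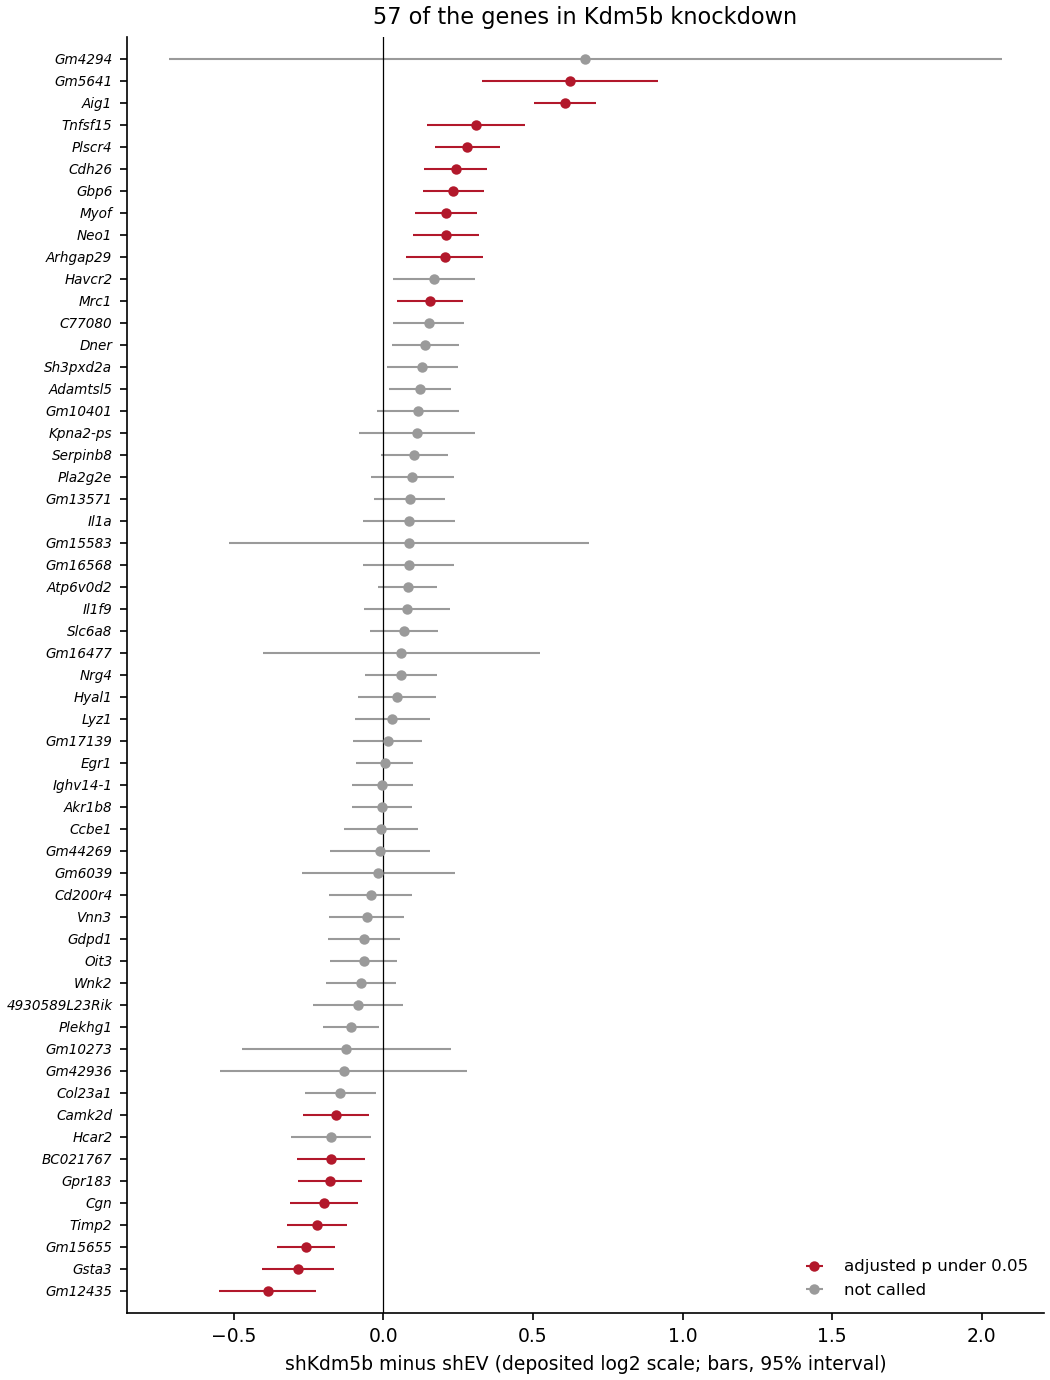
Difference between shKdm5b and shEV on the deposited log2 scale for the 57 listed genes, with 95% intervals from limma and genes past an adjusted p of 0.05 in red. Aig1 stands at 0.61 with a narrow interval, the pseudogene Gm4294 at 0.68 has an interval that spans 0, and Gsta3 lies at -0.28.

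With Kdm5b_WT in MLL-AF9 cells, 8 of the 37 listed genes were higher and 8 lower than with EV, 21.6% each, with a median difference of -0.03. Over all genes 24.3% were higher and 23.8% lower, and over genes with a low DMSO mean 12.4% and 11.6%. Genes that both inhibitors raised from a higher DMSO mean had more higher than lower calls, with 57.7% of 300 higher and 16.3% lower and a median of 0.16. The split depended on scaling: with libraries centred on their medians 4 of the 37 were higher and 9 lower. Quantile normalisation gave 5 and 9, and Kdm5b_WT libraries had medians 0.03 above those of EV. Over all genes, centring left 2702 higher and 4130 lower, against 3386 and 3326 as deposited. Leaving out a library moved it too, with 5 higher without Kdm5b_WT replicate 1 or replicate 2 and 4 higher without EV replicate 2. The summed monocyte and macrophage markers were 3346 to 3511 CPM with Kdm5b_WT, 2280 to 2292 with Kdm5b_H499A and 1281 to 1333 with EV. The neutrophil markers, 9 of 12 listed, summed to 264.3 to 277.8 with Kdm5b_WT, where S100a8 and Ngp were at 0, 218.1 to 227.4 with Kdm5b_H499A and 112.6 to 115.7 with EV. The B cell markers, 2 of 10 listed and nearly all Cd79b, summed to 12.6 to 13.8 with Kdm5b_WT, 36.2 to 36.8 with Kdm5b_H499A and 17.3 to 17.7 with EV. The mast cell, basophil and eosinophil markers, 3 of 12 listed, summed to 51.6 to 54.9 with Kdm5b_WT, 53.6 to 55.5 with Kdm5b_H499A and 89.2 with EV. The part of these markers in these comparisons was not tested.

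The genes higher with Kdm5b_WT were Nrg4, Il1f9, Camk2d, Cd200r4, Timp2, Gdpd1, Oit3 and Gm16568, and those lower were S100a10, Cd9, Mcoln2, Gpr183, Havcr2, Mdfic, Egr1 and C77080. Cd9 had 210.1 and 237.8 normalised counts with Kdm5b_WT and 385.6 and 480.1 with EV, a difference of -0.44 (SE 0.05, limma adjusted p = 5.11e-06). Havcr2, the inhibitory receptor TIM-3, had 262.6 and 259.4 with Kdm5b_WT and 375.8 and 402.4 with EV (-0.27, SE 0.04, limma adjusted p = 2.06e-05). Mcoln2, a cation channel of endosomes and lysosomes, had 9.45 and 5.90 with Kdm5b_WT and 44.4 and 43.2 with EV (limma adjusted p = 3.18e-05). Each of these genes had been higher with both PRC2 inhibitors in NUP98-NSD1 cells, and each had separate groups here. Camk2d, a calcium and calmodulin-dependent kinase, had 36.8 and 47.2 with Kdm5b_WT and 14.8 and 16.2 with EV (0.21, SE 0.05, limma adjusted p = 0.00197). The calls of Cd200r4, Gdpd1, Oit3 and Timp2 were lost with median centring, those of Cd200r4, Gdpd1 and Oit3 with quantile normalisation too, and those of Mdfic and Gm16568 without a single library.

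With Kdm5b_H499A, the demethylase-dead mutant, the calls in the set were mostly upward. Of the 37 genes, 17 were higher (45.9%) and 5 lower (13.5%) than with EV, with a median difference of 0.14. Over all genes 19.6% were higher and 19.1% lower, over genes with a low DMSO mean 13.8% and 8.39%, and over the 300 genes that both inhibitors raised from a higher DMSO mean 53.0% and 13.7%. The higher genes with a gene name were Il1f9, Nrg4, Timp2, Camk2d, S100a10, Gbp6, Il1a, Hcar2, Oit3, Adamtsl5, Myof, Serpinb8, Gdpd1 and Cd200r4, and the lower ones Havcr2, Mdfic, Gpr183, Egr1 and Mcoln2. Without EV replicate 2 the count of higher genes was 11, and without Kdm5b_H499A replicate 1 or EV replicate 1 the count of lower genes was 3. The calls of Hcar2, Gbp6, Il1a, Myof, Gpr183, Adamtsl5, Serpinb8, Mcoln2, Gdpd1, Cd200r4, C77080 and Gm4294 were lost without at least 1 library. Calls of Il1f9, Nrg4, Havcr2, Timp2, S100a10, Camk2d, Mdfic, Egr1, Gm16568 and Oit3 held under each alternative that kept the gene. Those of Gdpd1, Cd200r4, C77080 and Gm4294 were lost under quantile normalisation too, which gave 13 higher and 6 lower, while median centring gave 15 and 5. The Kdm5b_H499A libraries were the deepest of their experiment, at 19210000 to 19973000 reads, against 17341000 to 18932000 with EV. In both comparisons with EV the same 2 EV libraries served as controls. A filter on a mean of 0.5 above the lowest value left 13 members. Of these, 7 were higher and 4 lower with Kdm5b_H499A, against 4 higher and 7 lower with Kdm5b_WT. The stricter filter left 7, with 3 higher and 2 lower against 2 higher and 4 lower. The number of members called was thus larger with Kdm5b_H499A only where genes of few reads were kept.

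Il1f9, which encodes interleukin 36 gamma, had the largest change, with 293.4 and 314.6 normalised counts with Kdm5b_H499A, 35.7 and 39.3 with Kdm5b_WT and 4.93 and 2.16 with EV. Its difference from EV was 1.26 with Kdm5b_H499A (SE 0.04, limma adjusted p = 7.64e-12) and 0.36 with Kdm5b_WT (SE 0.04, limma adjusted p = 6.68e-06). Nrg4 followed, with 494.0 and 538.4 with Kdm5b_H499A, 251.0 and 232.9 with Kdm5b_WT and 72.0 and 68.0 with EV, or 1.10 and 0.57 above EV (limma adjusted p = 1.05e-11 and 1.13e-08). Timp2 had 44.6 and 56.0 with Kdm5b_H499A, 18.9 and 11.8 with Kdm5b_WT and 6.90 and 3.24 with EV. In these genes the 3 groups were separate, with Kdm5b_H499A highest and EV lowest. In NUP98-NSD1 cells Il1f9 held 3.01, 4.11 and 5.46 normalised counts with shKdm5b and 4.34, 3.39 and 0 with shEV, a difference of 0.08 with a 95% interval of -0.07 to 0.22. Nrg4 there had 62.2, 46.3 and 43.7 with shKdm5b and 49.5, 42.3 and 36.8 with shEV, and the groups overlapped.

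**Figure D4:**
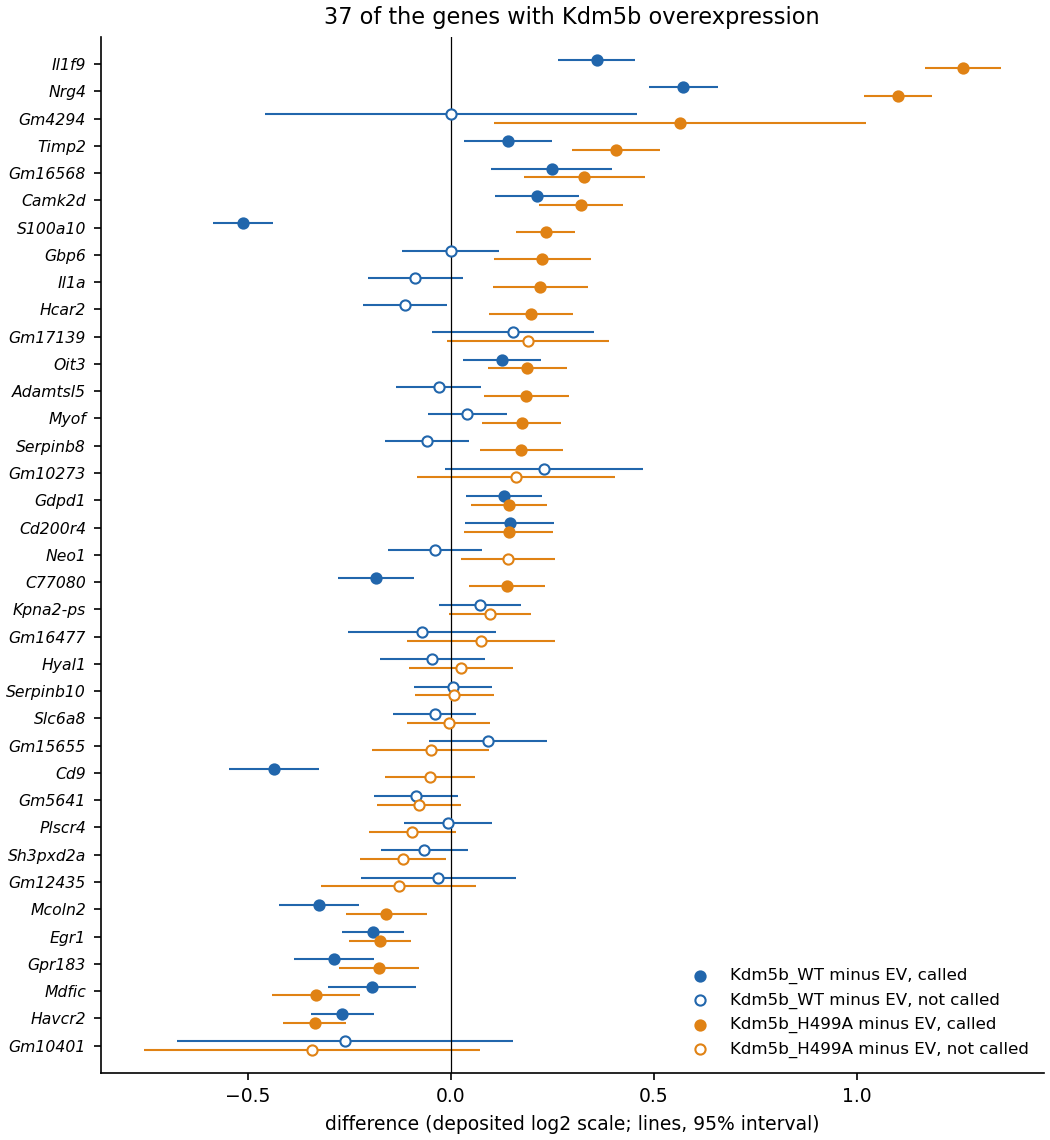
Differences of Kdm5b_WT (blue) and Kdm5b_H499A (orange) from EV on the deposited log2 scale for the 37 listed genes, with 95% intervals from limma, filled where the adjusted p is under 0.05. Il1f9 and Nrg4 lie furthest right with Kdm5b_H499A, and S100a10 and C77080 are called to opposite sides of 0 with the 2 constructs.

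Set directly against each other, Kdm5b_WT left 15 of the 37 genes lower than Kdm5b_H499A (40.5%) and 1 higher (2.70%), with a median difference of -0.08. Over all genes 20.9% were lower and 20.7% higher, and over genes with a low DMSO mean 13.1% and 7.46%. Of the 300 genes that both inhibitors raised from a higher DMSO mean, 28.3% were lower and 42.0% higher. The lower genes with a gene name were Il1f9, S100a10, Nrg4, Cd9, Hcar2, Il1a, Timp2, Serpinb8, Gbp6, Adamtsl5, Neo1, Mcoln2 and Myof, and the higher gene was Mdfic. Left-out libraries gave 11 to 12 lower genes, median centring 17 and quantile normalisation 13. The calls of Gbp6, Mcoln2, Neo1, Myof and Mdfic were lost without at least 1 library, and that of Mdfic also with median centring and with the EV libraries left out of the fit.

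S100a10, a partner of annexin A2 at the cell surface, had 360.3 and 372.4 normalised counts with Kdm5b_WT, 931.3 and 867.5 with Kdm5b_H499A and 707.2 and 687.3 with EV, so Kdm5b_WT differed from Kdm5b_H499A by -0.74 (SE 0.03, limma adjusted p = 2.50e-10). Hcar2, the receptor for niacin and hydroxybutyrate, had 26.3 and 33.4 with Kdm5b_WT, 72.4 and 98.4 with Kdm5b_H499A and 45.4 and 47.5 with EV (-0.31 between the constructs, limma adjusted p = 0.000104). Il1a had 0 and 0.983 with Kdm5b_WT, 21.4 and 13.5 with Kdm5b_H499A and 0.986 and 4.32 with EV (-0.31, limma adjusted p = 0.000330). Serpinb8 had 3.15 and 4.91 with Kdm5b_WT, 19.5 and 26.1 with Kdm5b_H499A and 6.90 and 7.55 with EV (-0.23, limma adjusted p = 0.00114). In S100a10, Hcar2 and Serpinb8 both Kdm5b_WT libraries lay below both EV libraries and both Kdm5b_H499A libraries above them, although Hcar2 and Serpinb8 did not pass the threshold for Kdm5b_WT against EV (limma adjusted p = 0.0676 and 0.346). Serpinb10, next to Serpinb8, had 35.7 and 32.4 with Kdm5b_WT, 31.6 and 37.6 with Kdm5b_H499A and 36.5 and 30.2 with EV, and its groups overlapped. Of the 9 immune and myeloid effector genes listed, 6 were lower with Kdm5b_WT than with Kdm5b_H499A and 0 higher. Of the 428 genes of that class among all genes, 34.3% were lower and 29.7% higher, and of the 87 with a low DMSO mean 40.2% and 11.5%.

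A call in the knockdown together with a call in an overexpression comparison was found for 6 of the 32 members listed in both tables (18.8%), near the share of all genes listed in both, 20.5%. It was 8.87% of those with a low DMSO mean and 46.6% of those that both inhibitors raised from a higher one. Timp2 and Camk2d were lower with shKdm5b than with shEV, and higher with Kdm5b_WT and with Kdm5b_H499A than with EV. Gpr183 was lower in all 3 comparisons, at -0.18 with shKdm5b, -0.29 with Kdm5b_WT and -0.18 with Kdm5b_H499A. Gbp6 and Myof were higher with shKdm5b than with shEV and with Kdm5b_H499A than with EV. Neo1 was higher with shKdm5b and lower with Kdm5b_WT than with Kdm5b_H499A. In the knockdown the Timp2 call held under the 12 alternatives that kept the gene and the Gbp6 call under 13. Aig1 had 14, as the filters on low values did not remove it. That of Camk2d was lost without any 1 of the 6 libraries and with the replicate number as a block. That of Gpr183 was lost without any 1 of 4 libraries, and those of Myof and Neo1 without at least 1. Against EV, the Timp2 call with Kdm5b_WT was lost in 3 of 11 alternatives. With Kdm5b_H499A, that of Gbp6 was lost in 2 of 11 and that of Gpr183 in 2 of 12, while those of Timp2 and Camk2d held. The cells of the 2 experiments carried different fusions, so the comparisons differ in more than the direction of the Kdm5b change.

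**Figure D5:**
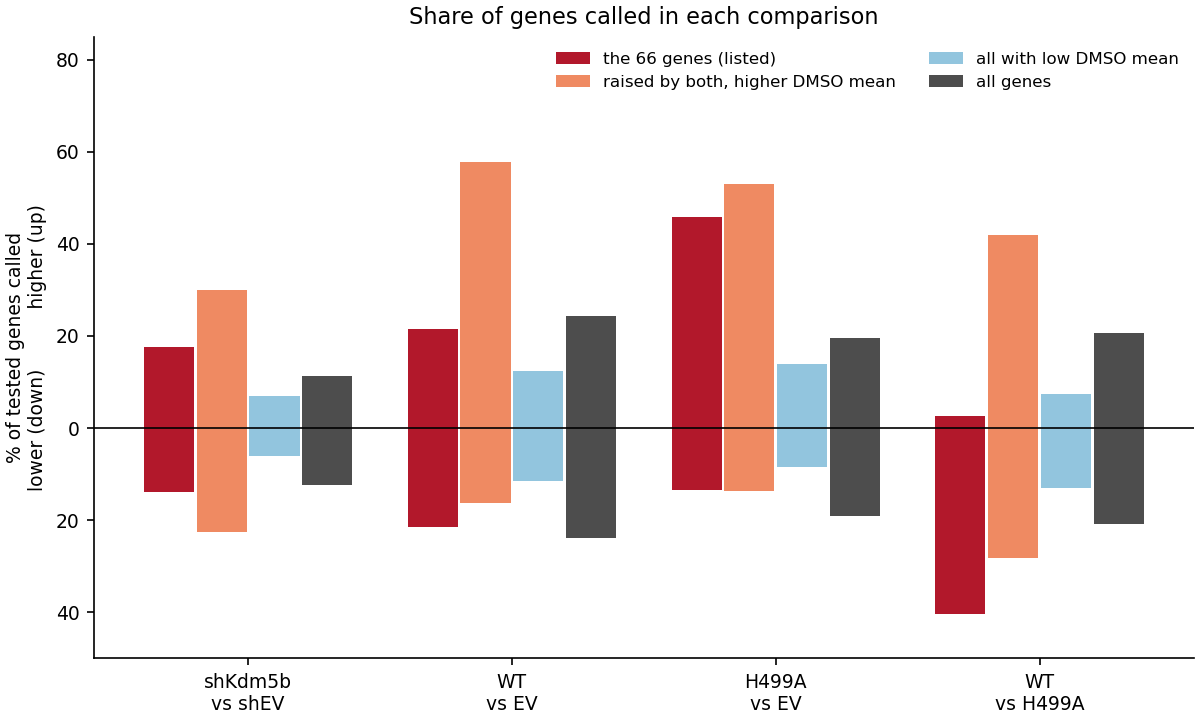
Share of tested genes called higher (upward bars) or lower (downward bars) at an adjusted p under 0.05 by limma in each Kdm5b comparison, for the listed members of the set, genes both inhibitors raised from a higher DMSO mean, all genes with a low DMSO mean and all genes. In the comparison of Kdm5b_WT with Kdm5b_H499A, 40.5% of the listed members were lower, and 42.0% of the genes raised from a higher DMSO mean were higher.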

How the data were processed

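The series holds 21 RNA sequencing libraries, 15 of NUP98-NSD1 and 6 of MLL-AF9 mouse leukaemia cells. Per the labels' protocols, libraries were made from total RNA with 1 of 2 kits, without saying which was used for each library. STAR 2.4.2, Salmon 0.1.19, DESeq2 1.38.2 and mm10 (GRCm38.p4) are named in the submitters' processing notes. The deposited tables hold log2 values, which the authors had passed through a variance-stabilising transformation. It was undone in closed form, which gave whole reads for 100% of values at a tolerance of 0.05, and these gave depths and normalised counts. All genes of each table were tested on the deposited log2 values by limma 3.58.1, run in R 4.3.3 with a mean for each group, an eBayes trend and no filter, with Benjamini-Hochberg adjustment over the table and calls under 0.05. The scripts were tested on simulated data. Replicates number 2 or 3 per group, so an exact permutation test could not pass 0.05. Positions and biotypes came from GENCODE M21 for 65 of 66 genes. Genes were named by rule: those with the largest smaller inhibitor difference, up to 4 per class, called members, members called in both experiments and those nearest the limits, with predicted genes and pseudogenes only where no other was left. Exceptions are marked or stand in full lists of calls. The members, the gene classes and the other lists were chosen with earlier results of these data known. Alternatives covered filters, scaling, the variance model, voom on recovered reads, blocking on replicate numbers and leaving out each library. A filter could remove a gene, so a call said to hold did so under the alternatives that kept its gene. Intervals cover counting error only where so stated.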

Additional observations from a re-analysis of the deposited data

Results flagged for a closer look

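S100a10 and C77080 differed between the 2 Kdm5b constructs in direction: each was lower with Kdm5b_WT than with EV, higher with Kdm5b_H499A than with EV, and different between the constructs by limma. For S100a10 the difference of Kdm5b_WT minus Kdm5b_H499A was -0.7447, with -0.51 for Kdm5b_WT and 0.23 for Kdm5b_H499A against EV, and all 3 calls held under each alternative run. For C77080 it was -0.3226, from 46.2 and 44.2 normalised counts with Kdm5b_WT, 108.6 and 118.7 with Kdm5b_H499A and 88.8 and 72.3 with EV. Its call for Kdm5b_H499A against EV was lost in 4 of 12 alternatives, with a highest adjusted p of 0.166 by limma.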

How the results depend on the processing

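Counts of members called under an alternative are given as moved where they differ by more than 1.5 times. Leaving out 1 library gave 57 to 71 genes meeting the rule, a rise limit of 0.5 left 16 and a DMSO limit of 0.5 left 30. Without replicate libraries in turn, members higher with shKdm5b numbered 6 to 14 and lower 5 to 7, and genes called in that comparison 1840 to 5806, against 3684 with all libraries (1840, 1908 and 1954 without an shEV library, 5806 without shKdm5b replicate 1). Leaving out a library also gave 4 to 7 higher with Kdm5b_WT, 11 to 15 higher and 3 to 6 lower with Kdm5b_H499A, and 1 to 2 higher with Kdm5b_WT than with Kdm5b_H499A. With the stricter filter on low values, which left 11 members in the knockdown and 7 in the overexpression table, 4 were higher and 0 lower with shKdm5b, 2 higher and 4 lower with Kdm5b_WT, 3 higher and 2 lower with Kdm5b_H499A, and 0 higher and 4 lower between the constructs. With a filter on a mean of 0.5, 3 of 31 were lower with shKdm5b, and of 13, 4 were higher with Kdm5b_WT, 7 higher with Kdm5b_H499A, and 0 higher and 7 lower between the constructs. Median centring gave 4 higher with Kdm5b_WT and 0 higher between the constructs, quantile normalisation 5 higher with Kdm5b_WT, and a fit of only the 2 constructs 0 higher. The other alternative values, 136 of 173, were not moved. They include the immune class share and the void promoter comparison, which were judged by limits other than 1.5 times. The calls with the largest differences, up to 8 per direction and comparison and without predicted genes, numbered 49. Of these, 31 held under all alternatives that kept the gene and 0 reversed. Over all called members, 9 of 18 calls held with shKdm5b and 10 of 16 with Kdm5b_WT. With Kdm5b_H499A 10 of 22 held, and between the constructs 10 of 16. The pseudogene Gm4294 reversed once between the constructs. Replicate numbers did not pair the samples: same-numbered knockdown libraries correlated at 0.23, -0.098 and -0.131, and not every library correlated best with its own number. With the replicate number as a block, 11 members were higher and 8 lower with shKdm5b, and 3473 genes were called, and of the member calls made without it, in any comparison, those of Camk2d (limma adjusted p = 0.0518) and Mrc1 with shKdm5b were lost; the block gave 9 and 8 with Kdm5b_WT, 18 and 5 with Kdm5b_H499A, and 1 and 15 between the constructs, with 6777, 5492 and 5894 genes called. Most members rest on few reads in control libraries, which limits the changes that can be detected at this depth. The planned comparison of promoter base composition was void, as stated above.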
